A study of Sus scrofa with 12 samples.

Results

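Molecular chaperones, the proteins that help other proteins fold, were followed as mRNAs in porcine oocytes over in vitro maturation. A gene was included when its pig symbol began with HSPA, HSPB, HSPD, HSPE, HSPH, HSP90 or DNAJ, began with CCT and a digit, or was TCP1, STIP1, CDC37, PTGES3 or AHSA1. The rule uses names and no measured value, and it takes in some genes by their letters whose products are not chaperones themselves, such as HSPBAP1, which encodes a protein that binds a small heat shock protein. It found 77 genes among the 31908 Ensembl identifiers listed in each library, of which 15029 had a symbol. CCT6A, a subunit of the cytosolic chaperonin, had no matching identifier and was not analysed here, nor were HSPA2, HSPB2, DNAJC21 and DNAJC30. HSP70.2, the pig symbol of a stress-inducible HSP70, is outside the rule.

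The oocytes had been matured in vitro for 0h, 22h or 46h, and each of these stages had 4 replicates, which gave 12 libraries. The series' design text gives the middle time as 24h, and 22h is used here as in the sample labels. All of them came from ovaries of prepubertal gilts, were held as cumulus-oocyte complexes for the stated time in a TCM199 medium that contained follicular fluid of pigs, epidermal growth factor, cysteine and the gonadotropins PMSG and HCG, and were stripped of cumulus cells with hyaluronidase, and each sample was a pool of oocytes. The 22h and 46h groups therefore differ from 0h by both time and exposure to these hormones, which cannot be told apart. The cDNA was primed with oligo-dT by the SMART-Seq2 method, so that a change in the amount of an mRNA and a change in the length of its poly(A) tail cannot be told apart in these values. The paper gives the same number of oocytes per sample at each stage. The values are scaled per library and do not show the total amount of RNA per oocyte. The labels number the replicates within a stage and do not say whether they came from separate collections. The p-values therefore set a difference between stages against the spread between these samples, which may be technical.

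HSP70 proteins bind stretches of unfolded protein and let go of them in a cycle driven by ATP. J-domain proteins, encoded by the DNAJ genes, bring the clients and speed up the ATP step, and HSP110 proteins exchange the nucleotide. Clients such as kinases and steroid receptors are handed on by STIP1 to HSP90, whose ATPase is stimulated by AHSA1, whereas actin and tubulin fold inside the cytosolic chaperonin, a double ring with each subunit encoded by its own gene. Mitochondria and the endoplasmic reticulum (ER) have their own sets, HSPA9 with HSPD1 and HSPE1 in the former and HSPA5 with HSP90B1 in the latter. The fully grown oocyte makes little new RNA while it matures, and works from stored mRNAs.

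Levels are given as FPKM, a value per transcript length and per library, so that levels of different genes can be set side by side. Of the 77 genes, 55 averaged at least 1 FPKM across all libraries and were tested among 7013 genes with limma on log2(FPKM + 1). To pass, a gene needed an adjusted p below 0.05 as well as a change of more than 1.5-fold, and fold changes of low genes are understated on this scale. Means are given ± SD over 4 libraries. Read numbers per library are not known from FPKM values.

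Library facts that touch these results were few. Total FPKM was 697468 to 802184, of which the 13 protein genes of mitochondrial DNA made up 1.79% to 3.77% (0h), 8.06% to 12.02% (22h) and 12.8% to 16.7% (46h). Replicate 4 at 0h stood apart, with a mean correlation of 0.950 with the other libraries of its stage (across genes, which are not independent replicates), against 0.967 to 0.978 for the rest of that stage. The 9 matched oocyte markers summed to 14153 to 23774 (0h), 20103 to 28952 (22h) and 10218 to 13873 FPKM (46h), and 8 of them were lower at 46h than at 22h. Markers of cumulus and granulosa cells (9 matched of 11) summed to 2.37 to 7.58, 2.88 to 4.58 and 3.92 to 6.20 FPKM, with LHCGR at 0 in every library and STAR as the only one tested. Theca and stroma markers reached at most 3.02 FPKM and those of blood and immune cells at most 6.58, with CYP17A1, COL1A1, CD68 and HBB at 0 in every library. Of the 2 endothelial markers matched CDH5 was at 0, and PECAM1 rose from 9.29 to 22.1 FPKM between 0h and 46h. The part of this rise in the results below was not tested.

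Sequence around the members' starts and ends was looked at first, because a DNA motif named after heat shock genes and an RNA motif named after polyadenylation in oocytes bear on this gene group by their textbook roles. The motifs were chosen after values were known and are given as a description without a test. The windows were read from RefSeq's Sscrofa11.1 genome, for the longest annotated transcript of each gene, and all 55 tested members matched, among 5698 tested genes that did. The core of the heat shock element, which the factor HSF1 binds as a run of repeated short units, was searched as GAANNTTC in the 250 bases before to 50 bases after the transcript start. This motif reads alike on both strands. It was present in 10 of the 55 members (18.2%), against 343 of all 5698 genes (6.02%). The match of HSPD1 lay in the 522 bases between the HSPD1 and HSPE1 starts but outside the window of HSPE1, which was therefore not counted. The 10 were HSP90AB1, HSPA8, HSPD1, HSPH1, HSPB1, DNAJA4, DNAJB1, DNAJB6, DNAJB14 and DNAJC9. Windows of 30 bases from 6 of them, with the motif in capitals, are shown because these genes went different ways over maturation, as described below.
HSPA8, chr9:49986792-49986821, minus strand: ggccccttctgGAAGGTTCtgaggccgggt
HSPH1, chr11:7759421-7759450, minus strand: cgcagattctgGAAAGTTCcgatcagtgcg
DNAJB1, chr2:64761690-64761719, plus strand: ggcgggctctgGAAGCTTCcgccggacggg
HSPD1, chr15:101373710-101373739, minus strand: ggccctccccgGAAAGTTCtggaacggcgc
HSP90AB1, chr7:39237092-39237121, plus strand: cccccgcccccGAAGCTTCcagaactaagc
HSPB1, chr3:10039660-10039689, minus strand: ctcaaacaggaGAAGGTTCcagatgtgggc
Among the 8 members that were higher at 46h than at 0h, 1 held the motif (12.5%, against 7.04% of all matched higher genes), among the 30 that were lower 6 did (20%, against 6.33%), and among the 17 others 3 did (17.6%, against 5.37%).

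The second motif was the cytoplasmic polyadenylation element, to which CPEB binds in stored oocyte mRNAs, searched as TTTTAT or TTTTAAT on the transcript strand in the last 100 bases of the annotated transcript. It was found in 4 of the 8 members that were higher at 46h than at 0h (50%), in 3 of the 30 that were lower (10%) and in 4 of the 17 others (23.5%). Over all matched genes the shares were 29.3% of 966 higher genes, 15.5% of 2163 lower genes and 24.5% of the other 2569. A cleavage signal, AATAAA or ATTAAA in the last 50 bases, was in 4 of the 8 higher members (50%, against 79.9% of all higher genes). It was in 21 of the 30 lower members (70%, against 69.4%) and in 14 of the 17 others (82.4%, against 78.2%). DNAJB4 had none, and whether annotated ends without it are the ends in use was not tested. The 4 rising members with TTTTAT or TTTTAAT were AHSA1, HSPA9, DNAJB4 and DNAJC24, and 30 bases of each are shown with that motif in capitals.
AHSA1, chr7:100520295-100520324, plus strand: gtaatttctcTTTTATgtgtacatacgcta
HSPA9, chr2:140515247-140515276, minus strand: cattcaggatTTTTAATaaagaggaaaagc
DNAJB4, chr6:135243944-135243973, minus strand: ttcttaggtgTTTTAATtttttaaatatat
DNAJC24, chr2:29305688-29305717, minus strand: acaattaataaaggtgaTTTTATagcatta
The motif of HSPA9 shares its last bases with the AATAAA that marks the cleavage site. The 2 most abundant members in the mean over all libraries were DNAJC15 and HSPE1, although DNAJA1 was above both at 46h. DNAJC15 and HSPE1 had AATAAA, here in capitals, and no TTTTAT or TTTTAAT in that window, which says only that these letters are not there.
DNAJC15, chr11:24011530-24011559, minus strand: agttatataatAATAAAagatgaacaatct
HSPE1, chr15:101376117-101376146, plus strand: cacatttacaAATAAAaatatataaatgaa

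Chaperone mRNA as a whole went down, and nearly all of that came from a pair of genes. The 77 genes took 3.49% ± 0.48 of total FPKM at 0h, 2.61% ± 0.33 at 22h and 1.11% ± 0.07 at 46h (SD, n = 4 libraries each). DNAJC15, whose product sits in the inner mitochondrial membrane, and HSPE1, which encodes the lid of the mitochondrial chaperonin, accounted for 2.72% ± 0.56, 1.84% ± 0.41 and 0.411% ± 0.035. The other 75 members together took 0.766% ± 0.087, 0.771% ± 0.088 and 0.701% ± 0.047, a change within the spread between libraries. Behind this sum, 8 genes went up and 28 of the remaining ones went down between 0h and 46h. The 8 were 14.5% of the 55 members tested, near the 16.8% of all genes tested that were higher, and 39.1% of all genes were lower. Counts under other scalings are given below. The number of members with at least 1 FPKM lay between 54 and 58 (0h), 54 and 59 (22h) and 47 and 48 (46h). The mean at 46h was 83.6% of that at 0h for the members and 81.3% for all genes.

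**Figure D1:**
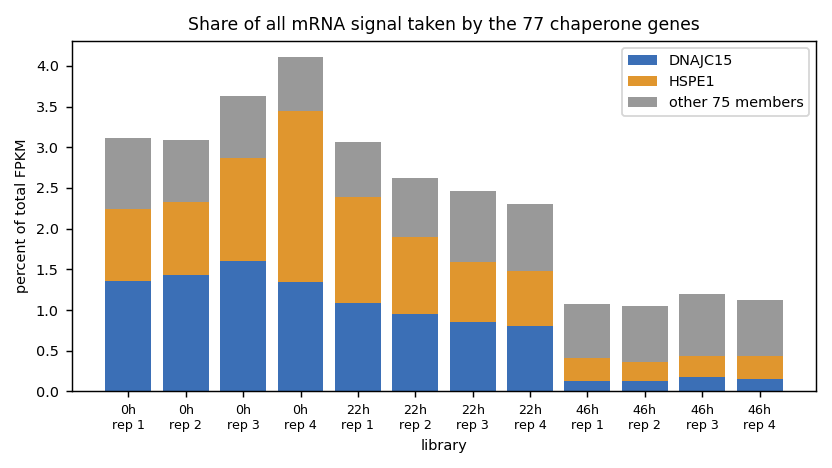
Stacked bars give the percent of total FPKM taken by DNAJC15, HSPE1 and the other 75 chaperone genes in each of the 12 libraries. The total fell from a mean of 3.49% at 0h to 1.11% at 46h, whereas the other 75 genes stayed between 0.656% and 0.873% in all libraries.

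DNAJC15 (ENSSSCG00000038251) measured 9473, 10373, 12028 and 10481 FPKM at 0h, 8409, 7409, 5995 and 5904 at 22h, and 1006, 984, 1389.7 and 1239.9 at 46h. Every library at 46h was below every library at 22h, and these were below all at 0h. By rank of the stage mean among all genes it went from 12 at 0h to 86 at 46h. Its log2 fold change was -0.62 (SE 0.17, adjusted p = 0.0137) at 22h against 0h and -2.58 (SE 0.17, adjusted p = 2.43e-08) at 46h against 22h, although the first of these calls was lost under median-of-ratios scaling, at TPM without mitochondrially encoded genes and without any of 3 single libraries (0h replicate 3, 22h replicate 3 or 22h replicate 4). HSPE1 (ENSSSCG00000016078) measured 6146, 6440.2, 9584 and 16462 FPKM at 0h, 10096, 7317, 5214 and 4972 at 22h, and 2309, 1824, 2061 and 2232 at 46h. Here 0h overlapped with 22h, with replicate 4 at 0h far above the rest, and 46h lay below both. The first step was -0.43 (SE 0.30, adjusted p = 0.293) and did not pass except under quantile normalization (-0.67), and the second was -1.66 (SE 0.30, adjusted p = 0.000373).

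The comparison of 22h with 0h asks what changes while meiosis resumes. Of the 55 members 3 were higher (5.45%, against 7.84% of all genes tested) and 17 were lower (30.9%, against 18.9% of all genes), and 35 did not pass. The median log2 fold change was -0.07 over the members and -0.00 over all genes. On this scale the 3 largest falls were STIP1, CCT3 and DNAJB13, and the rises were AHSA1, HSPD1 and HSPA14, whereas with a pseudocount of 0.1 CCT3 (-2.35) came before STIP1 (-2.10) and DNAJC18 (-1.95) before DNAJB13 (-1.81). Median-of-ratios scaling gave 3 higher (5.45%, against 9.51% of all genes) and 16 lower (29.1%, against 17.9%). Quantile normalization gave 4 higher (7.27%, against 14.6%) and 15 lower (27.3%, against 15.4%). With single libraries left out, the higher members numbered from 1 (without 22h replicate 2 or 4) to 5 (without 0h replicate 4).

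From 22h to 46h, when the oocytes pass to the second metaphase, 8 members were higher (14.5%, against 9.87% of all genes) and 26 lower (47.3%, against 32.6%), with 21 not passing. The median was -0.54, against -0.26 over all genes. The split depended on the scaling. Under median-of-ratios scaling 12 were higher (21.8%, against 20.1% of all genes) and 21 lower (38.2%, against 25.6%). Under quantile normalization 11 were higher (20%, against 26.8%) and 18 lower (32.7%, against 21.5%), where the share of higher members lay below that of all genes. On the log2(FPKM + 1) scale DNAJB6, HSPA5 and DNAJC15 fell most, and DNAJC24, HSPBAP1 and CCT8 rose most. With a pseudocount of 0.1 DNAJC11 (-2.82), CCT6B (-2.79) and CCT4 (-2.62) came before DNAJC15, and HSPBAP1 (1.66) came before DNAJC24 (1.62).

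Over the whole of maturation, 46h against 0h, 8 members were higher (14.5%, against 16.8% of all genes) and 30 lower (54.5%, against 39.1%), and 17 did not pass. The median was -0.96, against -0.25 over all genes. Median-of-ratios scaling gave 14 higher (25.5%, against 29.2% of all genes) and 28 lower (50.9%, against 33%), and quantile normalization 18 higher (32.7%, against 40.3%) and 27 lower (49.1%, against 27.1%), with the median of all genes moved to 0.06 and 0.34. All 8 higher genes and 27 of the 30 lower genes passed under each scaling, the exceptions being TCP1 and DNAJC10 (lost in both) and DNAJC6 (lost under quantile normalization). All 38 also passed with each library left out in turn. The 3 comparisons share libraries, so their counts are not independent of each other.

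**Figure D2:**
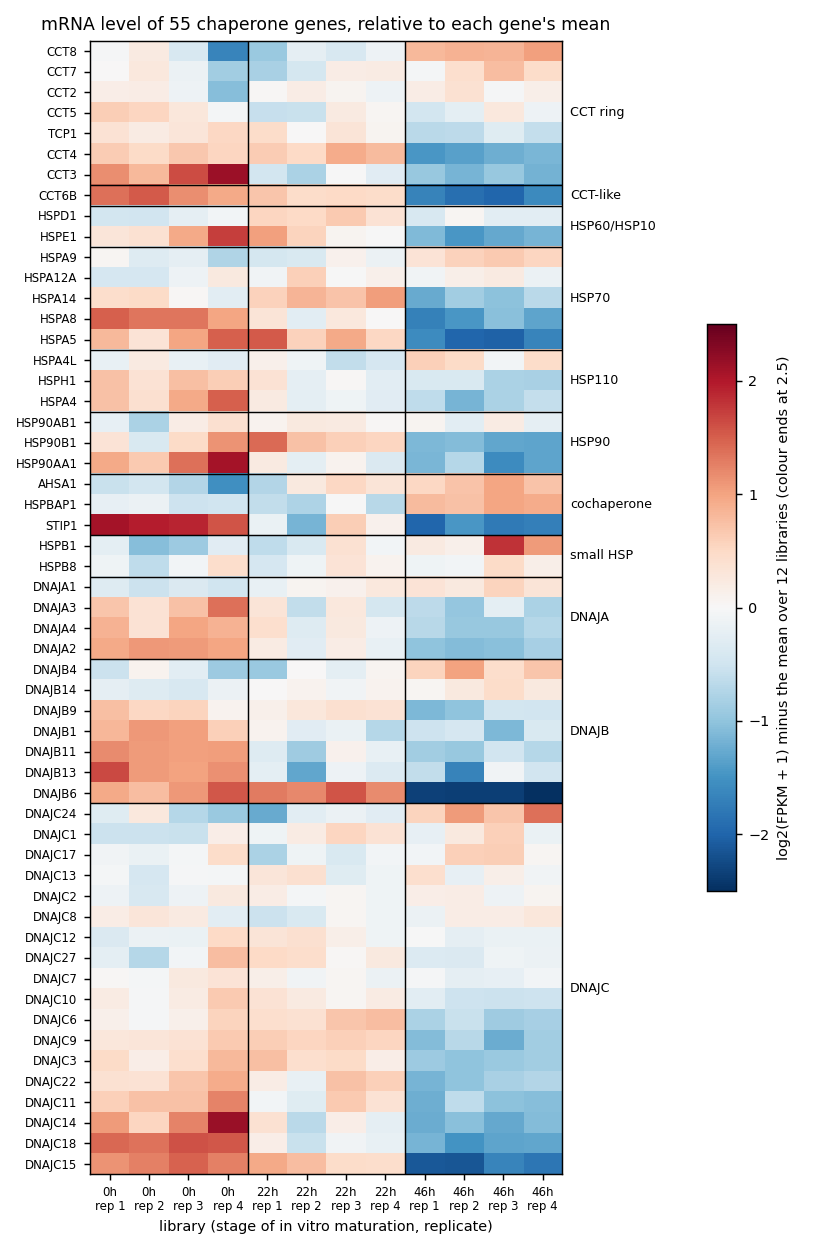
Each row is 1 of 55 tested chaperone genes and each column a library, coloured by log2(FPKM + 1) minus the gene's mean over 12 libraries, with families parted by lines. The block at 46h is mostly blue for the 30 genes that were lower than at 0h and mostly red for the 8 that were higher, among them CCT8, HSPA9, AHSA1 and DNAJC24.

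The 2 steps placed the 55 members into 7 courses. There were 12 that fell in both steps (21.8%, against 11.6% of all genes tested), namely CCT3, CCT6B, DNAJA2, DNAJA4, DNAJC11, DNAJC14, DNAJC15, DNAJC18, HSP90AA1, HSPA4, HSPA8 and STIP1. Another 5 fell in the first step only (9.09%, against 6.59%; DNAJA3, DNAJB1, DNAJB11, DNAJB13 and HSPH1), and 12 passed as lower in the second step only (21.8%, against 19.1%; CCT4, DNAJB6, DNAJB9, DNAJC3, DNAJC6, DNAJC9, DNAJC10, DNAJC22, HSP90B1, HSPA5, HSPE1 and TCP1). The 8 genes that were higher in the second step only (14.5%, against 8.28%) were CCT8, DNAJB4, DNAJC17, DNAJC24, HSPA4L, HSPA9, HSPB1 and HSPBAP1. HSPD1 and HSPA14 rose and then fell (3.64%, against 1.83%), AHSA1 passed as higher in the first step only (1.82%, against 5.06%), and 15 passed in neither (27.3%, against 45.9%). Some of these calls rested on single libraries or on the scaling. In the first step DNAJA3 was lost without 22h replicate 2 or 4, DNAJC11 without 0h replicate 3 or 4 or 22h replicate 1 or 2, and HSPH1 without 0h replicate 3 or 22h replicate 2 or 4, and quantile normalization lost DNAJA4, DNAJC11 and HSPH1. A pseudocount of 0.1 lost DNAJA4 and DNAJC11, and TPM without mitochondrially encoded genes lost DNAJC11 and HSPH1. In the second step quantile normalization lost DNAJA2, DNAJB9 and HSP90AA1, and both it and median-of-ratios scaling lost TCP1, HSPD1, HSPA4, CCT3 and DNAJC10. With no filter on low values DNAJC11, AHSA1 and HSPA14 were lost in the first step and CCT3, DNAJC17 and HSPB1 in the second. Other calls were gained under another setting. In the first step CCT5 passed as lower without 0h replicate 4 or 22h replicate 3, and DNAJC27 and HSP90B1 as higher without 0h replicate 4. In the second step AHSA1 passed as higher without 0h replicate 4 or 22h replicate 3 and under both scalings, CCT7 as higher without 0h replicate 4 and under both scalings, HSPH1 as lower at TPM and without 22h replicate 2 or 4 or 46h replicate 1 or 2, DNAJA1 as higher under median-of-ratios scaling (0.66), and DNAJA3 and DNAJB11 as lower without 22h replicate 2. A call in one step and not in the other does not show that the steps differ, as that difference was not tested.

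**Figure D3:**
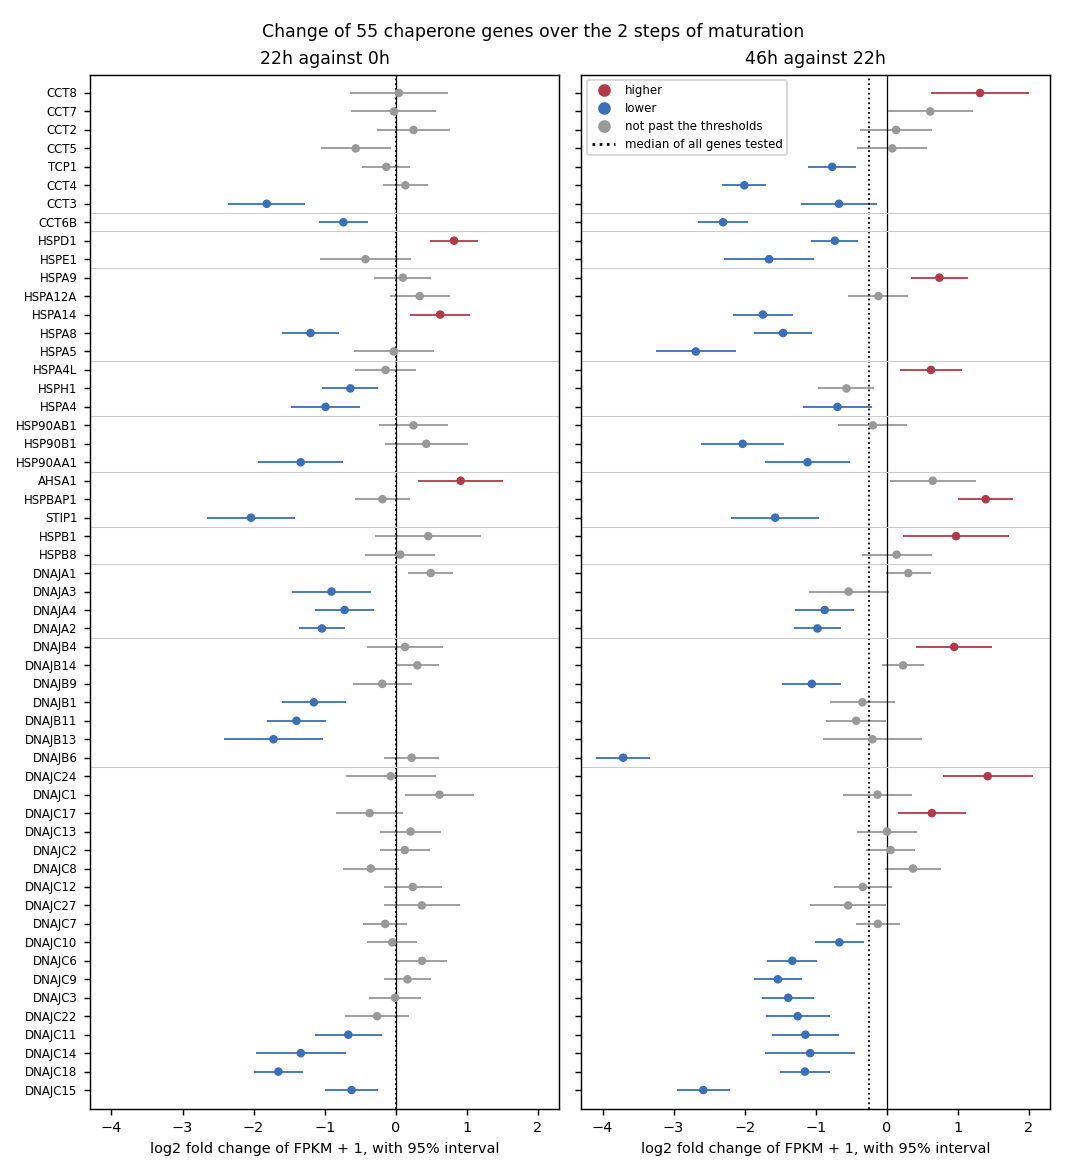
Points are log2 fold changes with 95% intervals for 22h against 0h and 46h against 22h, red for higher, blue for lower and grey for members that did not pass, and the dotted line is the median of all 7013 genes. DNAJB6, at -3.71 in the second step, lies farthest from 0, after a first step of 0.22.

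The cytosolic chaperonin had subunit mRNAs at very different levels. Its subunits enter each ring in equal number, and 7 of the 8 genes were measured. CCT2 was the highest at each stage and exceeded the lowest subunit 103-fold at 0h (CCT7), 291-fold at 22h (CCT3) and 908-fold at 46h (CCT3). The last of these ratios rests on a CCT3 mean of 0.505 FPKM, a value under 1 FPKM, so its size is uncertain. Between 0h and 46h CCT8 rose, CCT3 and CCT4 fell, TCP1 fell except under median-of-ratios scaling and quantile normalization, and CCT2, CCT5 and CCT7 did not pass. CCT7 passed as higher under these same 2 scalings and without 0h replicate 2 or 46h replicate 1, and CCT2 under the first of them.

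CCT2 (ENSSSCG00000000496) measured 453, 461, 373 and 194 FPKM at 0h, 414, 461, 428 and 371 at 22h, and 463, 527, 396 and 449 at 46h. Apart from replicate 4 at 0h, all libraries were close to each other, and the change from 0h to 46h was 0.38 with a 95% interval of -0.13 to 0.89. CCT8 (ENSSSCG00000026761) measured 180.3, 216, 139 and 58.1 FPKM at 0h, 95.9, 158, 139 and 169 at 22h, and 324, 337, 335 and 375 at 46h. All 4 libraries at 46h were above all others, and the step from 22h was 1.31 (SE 0.32, adjusted p = 0.00402) after a first step of 0.04 (-0.65 to 0.73). TCP1 (ENSSSCG00000004048), the subunit after which the ring was first named, measured 50.6, 45, 48.5 and 56.4 FPKM at 0h, 54.5, 39.2, 48.9 and 40.9 at 22h, and 24.1, 24.4, 31.7 and 25.5 at 46h. Its libraries at 46h lay below the others, with a log2 fold change of -0.90 (SE 0.16, adjusted p = 0.000181) against 0h. 

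CCT5 (ENSSSCG00000024126) measured 42.2, 40.2, 33.5 and 26.3 FPKM at 0h, 17.9, 18.3, 32 and 28.1 at 22h, and 19.6, 22.9, 33 and 24.8 at 46h. The stages overlapped, and its change from 0h to 46h, -0.49 (SE 0.23, adjusted p = 0.0761), did not pass, although it did without replicate 4 at 0h (-0.62) or replicate 3 at 46h (-0.63). CCT4 (ENSSSCG00000008377) measured 7.27, 6.47, 7.44 and 6.68 FPKM at 0h, 7.26, 6.51, 9.2 and 8.19 at 22h, and 0.94, 1.09, 1.3 and 1.4 at 46h. It did not pass at 22h, with a first step of 0.13 (-0.18 to 0.45), and then fell by 2.01 on the log2 scale (SE 0.15, adjusted p = 6.01e-08). CCT7 (ENSSSCG00000008303) measured 4.07, 5.0, 3.54 and 1.76 FPKM at 0h, 1.87, 2.73, 4.72 and 4.78 at 22h, and 3.84, 5.71, 7.58 and 5.89 at 46h. The stages overlapped and the change from 0h was 0.58 (SE 0.28, adjusted p = 0.0829).

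CCT3 (ENSSSCG00000006487) measured 5.94, 4.45, 8.67 and 12.8 FPKM at 0h, 1.28, 0.81, 2.1 and 1.57 at 22h, and 0.62, 0.40, 0.62 and 0.38 at 46h. It went the other way from CCT8, with no overlap between any of the stages, and was -2.49 (SE 0.25, adjusted p = 8.75e-07) at 46h against 0h. Its second step, -0.67 (SE 0.25, adjusted p = 0.039), was lost under 2 scalings and without any of 7 single libraries (each of the 4 at 46h, and 22h replicates 1, 3 and 4). CCT6B, a relative of the CCT6A subunit known mainly from testis, had 21.7 ± 4.01, 12.5 ± 1.1 and 1.74 ± 0.334 FPKM at 0h, 22h and 46h, and fell in both steps. CCT8L2 was listed at 0 in every library.

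**Figure D4:**
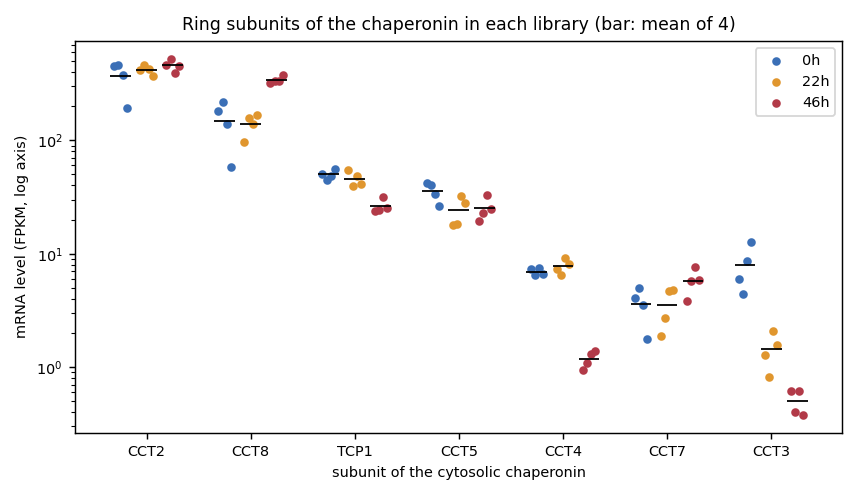
Points are FPKM values of the 7 measured ring subunits in each library on a log axis, with a bar at the mean of 4. CCT8 is highest at 46h, CCT3 and CCT4 are lowest at 46h, and CCT2 stays between 194 and 527 FPKM in all 12 libraries.

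In the HSP70 family the constitutive cytosolic member and its ER relative fell, and the mitochondrial one rose. HSPA8 (ENSSSCG00000015140), the housekeeping HSP70 of the cytosol, measured 1435, 1279, 1272 and 1001 FPKM at 0h, 635, 423, 610.1 and 509.7 at 22h, and 157, 183, 245 and 203 at 46h. The stages did not overlap, and the log2 fold change was -1.20 (SE 0.19, adjusted p = 0.000357) at the first step and -1.46 (SE 0.19, adjusted p = 1.95e-05) at the second, which together left it at -2.66. HSPA5 (ENSSSCG00000005601), also called BiP, which holds unfolded proteins in the ER, measured 52, 37.4, 59 and 84.4 FPKM at 0h, 85.8, 43.7, 56.8 and 42.1 at 22h, and 9.14, 6.67, 6.45 and 8.66 at 46h. It overlapped between 0h and 22h and then fell by 2.69 on the log2 scale (SE 0.26, adjusted p = 1.15e-06). HSPA9, or mortalin, which pulls imported proteins into mitochondria, had 73.3 ± 16.3, 77.9 ± 14.2 and 129.5 ± 11.1 FPKM and was 0.84 (SE 0.19, adjusted p = 0.00132) at 46h against 0h.

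HSPA14 (ENSSSCG00000011051), which works at the ribosome with DNAJC2, measured 443, 454, 333 and 272 FPKM at 0h, 486, 589, 535 and 674 at 22h, and 136, 179.9, 161 and 204 at 46h. It peaked at 22h, and the rise of 0.62 (SE 0.20, adjusted p = 0.0268) was lost under median-of-ratios scaling, with the replicate number as a block, with no filter on low values, in a fit of these 2 stages alone, and without any of 4 libraries (0h replicate 3 or 4, 22h replicate 2 or 4), where it went down to 0.48. The fall that followed was -1.74 (SE 0.20, adjusted p = 5.45e-06). DNAJC2, its partner, did not pass in any comparison, at 44.3 ± 8.57, 47.9 ± 4.43 and 49.8 ± 4.91 FPKM. HSPA12A, a distant relative, had 3.79 ± 1.1, 5.04 ± 1.37 and 4.5 ± 0.699 FPKM and did not pass either, although both passed as higher at 46h against 0h under quantile normalization (0.67 and 0.90), and HSPA6, HSPA13 and HSPA12B stayed under the filter. HSPA1L was listed at 0 throughout. HSP70.2, which the name rule leaves out, ranged between 5.33 and 7.93 FPKM (0h), 2.64 and 11.16 (22h) and 0.86 and 1.86 (46h), with all libraries of the last stage below the others.

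Of the HSP110 genes, which encode nucleotide exchange factors of HSP70, HSPA4 and HSPH1 were lower at 46h than at 0h and HSPA4L did not pass. HSPA4 had 53.1 ± 18, 25.5 ± 4.5 and 15.4 ± 2.76 FPKM and fell in both steps, the second of which was lost under 2 scalings and without 22h replicate 1 or 46h replicate 2. HSPH1 had 68.7 ± 8.38, 44.2 ± 9.62 and 29.3 ± 5.01 FPKM and was -1.21 (SE 0.18, adjusted p = 4.99e-05) at 46h against 0h. HSPA4L had 34.6 ± 5.99, 31.5 ± 7.38 and 48.8 ± 9.2 FPKM, and its change from 0h to 46h, 0.48 (SE 0.20, adjusted p = 0.0537), passed under median-of-ratios scaling (0.87), under quantile normalization (0.97) and without 0h replicate 2 or 46h replicate 3 (0.59 and 0.62). From 22h to 46h it had a rise of 0.62 (SE 0.20, adjusted p = 0.0207) that was lost at TPM and without any of 5 single libraries (22h replicates 3 and 4, and 46h replicates 1, 2 and 4).

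HSP90 is encoded by a stress-inducible and a constitutive cytosolic gene and by HSP90B1 in the ER. HSP90AA1 (ENSSSCG00000002535), the inducible one, measured 150.5, 123, 203 and 331 FPKM at 0h, 90.2, 65.4, 82.4 and 60.4 at 22h, and 34.5, 46.6, 25.5 and 30.4 at 46h. It declined at each step without overlap, by 2.45 on the log2 scale in all (SE 0.28, adjusted p = 2.78e-06), though the second step was lost under quantile normalization. HSP90AB1, the constitutive one, had 228 ± 75.9, 259 ± 18.3 and 228 ± 37 FPKM, with a change of 0.05 from 0h to 46h and a 95% interval of -0.43 to 0.54. HSP90B1, also called GRP94, had 107 ± 44.7, 139 ± 43.6 and 32.3 ± 2.77 FPKM and fell in the second step by 2.03 (SE 0.27, adjusted p = 2.91e-05).

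Of the HSP90 cochaperones in the name rule, STIP1 fell and AHSA1 rose, and CDC37 and PTGES3 were under the filter. STIP1 (ENSSSCG00000021620), the adaptor between HSP70 and HSP90, measured 88, 80.3, 78.1 and 61.5 FPKM at 0h, 17.6, 8.37, 31 and 21.6 at 22h, and 4.34, 6.65, 5.13 and 5.45 at 46h. No stages overlapped, and its log2 fold change of -3.61 (SE 0.29, adjusted p = 8.24e-08) at 46h against 0h was the largest fall of any member tested on this scale. With a pseudocount of 0.1 it was -3.82 and DNAJC18, a lower gene, was at -3.85. AHSA1 (ENSSSCG00000002406), the activator of the HSP90 ATPase, measured 323, 349, 285 and 163 FPKM at 0h, 285, 566, 686 and 596 at 22h, and 680.3, 786, 942 and 786 at 46h. Replicate 1 at 22h lay among the 0h libraries, and all 4 at 46h were above all at 0h, with a change of 1.56 (SE 0.28, adjusted p = 0.000231). Its first step, 0.91 (SE 0.28, adjusted p = 0.0239), was lost without 22h replicate 2, 3 or 4 (0.77 at the lowest), with no filter on low values, and in a fit of these 2 stages alone.

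CDC37, which brings kinases to HSP90, measured 1.21, 0.69, 0.70 and 0.97 FPKM at 0h, 0.52, 0.09, 1.9 and 0.41 at 22h, and 0.30, 0.13, 0.52 and 0.16 at 46h. Its 0h and 46h libraries did not overlap, and those at 22h overlapped with both. PTGES3, the p23 cochaperone, measured 1.55, 0.70, 0.65 and 0.77 FPKM at 0h, 1.48, 1.18, 1.15 and 1.32 at 22h, and 0.50, 0.62, 0.43 and 0.73 at 46h. Its 22h and 46h libraries did not overlap, and those at 0h overlapped with both. For each of the pairs without overlap an exact two-sided permutation test gave p = 0.0286, the smallest that 4 against 4 libraries allow, with an adjusted p of 0.343 over the under-filter members and comparisons. HSPBAP1 (ENSSSCG00000011873) measured 3.72, 3.94, 2.82 and 2.84 FPKM at 0h, 2.55, 2.18, 4.37 and 2.34 at 22h, and 8.45, 8.06, 9.82 and 9.31 at 46h. All 4 libraries at 46h were above the others, and the second step was 1.39 (SE 0.18, adjusted p = 2.12e-05).

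HSPB1 (ENSSSCG00000039962), or HSP27, the small heat shock protein that HSPBAP1 binds, measured 7.47, 3.82, 4.36 and 7.28 FPKM at 0h, 5.53, 6.77, 12.1 and 8.65 at 22h, and 10.7, 10, 34.2 and 19.9 at 46h. The libraries at 46h were all above those at 0h but ranged from 10.01 to 34.2 FPKM among themselves, and the change was 1.43 (SE 0.35, adjusted p = 0.00242). Its second step, 0.97 (SE 0.35, adjusted p = 0.0317), was lost at TPM and without any of 5 single libraries (22h replicates 1, 2 and 4, and 46h replicates 3 and 4). HSPB8 did not pass at 1.18 ± 0.658, 1.24 ± 0.488 and 1.45 ± 0.472 FPKM, except as higher at 46h against 0h under quantile normalization (0.81), HSPB3 and HSPB6 were under the filter, and HSPB7 and HSPB9 were listed at 0.

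The mitochondrial chaperonin is built from HSPD1, the barrel, and HSPE1, its lid, which are neighbours on chromosome 15 on opposite strands with 522 bases from one annotated start to the other. HSPD1 (ENSSSCG00000016077) measured 11.7, 11.5, 13.9 and 15.5 FPKM at 0h, 24.2, 23.5, 26.5 and 21.4 at 22h, and 12.2, 17, 13.6 and 13.5 at 46h. It rose without overlap at 22h by 0.82 (SE 0.15, adjusted p = 0.00131) and overlapped with 0h again at 46h. The second step of -0.73 (SE 0.15, adjusted p = 0.00138) was lost under median-of-ratios scaling and quantile normalization, the latter of which gave a rise of 0.69 at 46h against 0h that passed. Over the same first step HSPE1 was at -0.43 (-1.06 to 0.21), and the level per length of HSPD1 was 0.00147 of that of HSPE1 at 0h and 0.00665 of it at 46h (geometric means). Of the 6 mitochondrial members tested, 4 were lower at 46h than at 0h (DNAJA3, DNAJC11, DNAJC15 and HSPE1), HSPA9 was higher, and HSPD1 did not pass, beside 39.1% lower and 16.8% higher among all genes tested.

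Of the 9 ER members tested, 2 were lower at 22h (DNAJB11 and DNAJC18) and none higher, beside 18.9% lower among all genes. At 46h against 22h 6 were lower, beside 32.6% of all genes, namely DNAJB9, DNAJC3, DNAJC10, DNAJC18, HSP90B1 and HSPA5, of which DNAJB9 and DNAJC10 were lost under quantile normalization. At 46h against 0h 7 were lower and none higher, beside 39.1% and 16.8% of all genes, with a median of -1.40 against -0.25 over all genes, although DNAJC10 was lost under 2 scalings, under which DNAJB14 and DNAJC1 passed as higher, DNAJB14 also without 46h replicate 1. DNAJB9, a J-protein that damps the unfolded protein sensor ERN1, had 36.3 ± 6.74, 31.3 ± 2.55 and 14.8 ± 3.73 FPKM. DNAJB11, which binds clients with HSPA5, had 8.09 ± 0.504, 2.55 ± 0.966 and 1.57 ± 0.378 FPKM, and DNAJC3, an inhibitor of translation kinases, 9.54 ± 1.99, 9.44 ± 1.74 and 2.95 ± 0.153 FPKM. DNAJC18 fell in both steps (10.4 ± 0.808, 2.69 ± 0.727 and 0.64 ± 0.156 FPKM), and DNAJC1, at 26 ± 7.28, 40 ± 7.6 and 36.9 ± 10.4 FPKM, passed in no comparison. It did as higher at 22h against 0h without 0h replicate 4, 22h replicate 1 or 46h replicate 3 (0.79, 0.73 and 0.61), under median-of-ratios scaling (0.66), quantile normalization and TPM without mitochondrially encoded genes (0.70 in both) and with the filter at 5 FPKM, and at 46h against 0h without 0h replicate 4 (0.66).

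The J-domain genes were the largest family, with 29 of 39 tested. At 46h against 0h 17 were lower (58.6%, against 39.1% of all genes), 3 higher (DNAJA1, DNAJB4 and DNAJC24, or 10.3% against 16.8%) and 9 did not pass, with a median of -1.25 against -0.25 over all genes. DNAJB6 (ENSSSCG00000033272), which keeps aggregation-prone proteins soluble, measured 93.6, 82.1, 102 and 143 FPKM at 0h, 119, 111, 145 and 109.8 at 22h, and 8.74, 8.56, 8.63 and 7.25 at 46h. Its 0h and 22h libraries overlapped, whereas all 46h values lay between 7.25 and 8.74 FPKM, far below them, with a second step of -3.71 (SE 0.18, adjusted p = 9.82e-10). DNAJB13 (ENSSSCG00000014832), known from the axoneme of sperm, measured 49.6, 32.5, 31.3 and 34.4 FPKM at 0h, 12.5, 5.5, 13.7 and 11.7 at 22h, and 9.55, 4.05, 14.1 and 10.6 at 46h. It fell by 1.72 on the log2 scale by 22h (SE 0.32, adjusted p = 0.00127), and its 22h and 46h libraries overlapped.

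DNAJA1, the main cytosolic J-protein here, had 1418 ± 108, 2002 ± 246 and 2459.8 ± 228 FPKM at 0h, 22h and 46h. All 4 libraries at 46h lay above all at 0h, a rise that passed (0.79 (SE 0.15, adjusted p = 0.000274)). Neither single step of DNAJA1 passed, at 0.49 (adjusted p = 0.02) and 0.30 (adjusted p = 0.104), except the second under median-of-ratios scaling. Its close relative DNAJA2 went from 32.5 ± 1.59 to 7.3 ± 0.687 FPKM (-2.02 (SE 0.15, adjusted p = 4.67e-08)), and DNAJA3, the mitochondrial one, and DNAJA4 fell too. DNAJB1, the classical HSP40, had 12.9 ± 2.07, 5.3 ± 1.41 and 3.96 ± 1.06 FPKM and was lower from 22h on. DNAJB4 had 6.98 ± 2.28, 7.76 ± 2.43 and 15.5 ± 2.88 FPKM and rose by 0.95 in the second step (SE 0.25, adjusted p = 0.00616).

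DNAJC24 (ENSSSCG00000026083), which takes part in making the diphthamide residue of elongation factor EEF2, measured 4.86, 7.71, 3.4 and 2.8 FPKM at 0h, 2.02, 5.01, 5.52 and 4.93 at 22h, and 9.7, 14.2, 10.7 and 17.8 at 46h. All libraries at 46h were above the others, with a second step of 1.42 (SE 0.30, adjusted p = 0.00126). DNAJC9, a histone chaperone, did not pass at 22h and then fell (67.3 ± 8.63, 75.1 ± 2.2 and 25.5 ± 4.46 FPKM). DNAJC7, a cochaperone with repeats that bind HSP70 and HSP90, did not pass at 28.8 ± 3.78, 25.7 ± 2.39 and 23.4 ± 1.58 FPKM, nor did DNAJC8, linked to splicing, at 213 ± 35.5, 167 ± 30.7 and 214 ± 26.4 FPKM, except as higher at 46h against 22h under median-of-ratios scaling (0.72). DNAJC12, which assists amino acid hydroxylases, had 30.7 ± 9.19, 35.7 ± 5.42 and 27.8 ± 1.95 FPKM and also did not pass. DNAJC14 fell in both steps (8.81 ± 4.9, 2.71 ± 1.14 and 0.693 ± 0.133 FPKM), as did DNAJC11 (3.19 ± 0.879, 1.69 ± 0.792 and 0.188 ± 0.217 FPKM). DNAJC6, or auxilin, which uncoats clathrin vesicles, had 1.69 ± 0.495, 2.45 ± 0.464 and 0.367 ± 0.146 FPKM, and DNAJC22 had 4.2 ± 1.0, 3.4 ± 1.2 and 0.80 ± 0.24 FPKM, and both passed as lower only in the second step and over the whole of maturation. DNAJC17 rose in the second step only (0.63 (SE 0.22, adjusted p = 0.0288)), a call lost at TPM and without any of 4 single libraries (22h replicates 1 and 3, and 46h replicates 2 and 3), and at 46h against 0h it passed as higher under median-of-ratios scaling (0.64) and quantile normalization (0.88). DNAJC13, DNAJC27 and DNAJB14 did not pass in the 3 comparisons. DNAJC13 did as higher at 46h against 0h under quantile normalization (0.82), DNAJC27 as lower at 46h against 22h at TPM (-0.64), and DNAJB14 as higher at 46h against 0h with a pseudocount of 0.1 and at TPM without mitochondrially encoded genes (0.64 in both) and at 46h against 22h under quantile normalization (0.73).

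Since neighbours in function went apart, ratios of 2 mRNAs were taken within each library, which removes the scaling of the library. The pairs were chosen after the values were seen, so that the direction of each ratio was known, and are described without a test. Of other ratios taken and not plotted, CCT4 over TCP1 went down, from -2.85 ± 0.16 at 0h to -4.49 ± 0.22 at 46h. HSPA9 over HSPA5, CCT8 over TCP1 and CCT2 over TCP1 were higher at 46h than at 0h. HSP90AB1 over HSP90AA1 was 1.16 at 0h, 3.52 at 22h and 6.75 at 46h (geometric means), with log2 ratios of -0.09 to 0.44, 1.47 to 2.08 and 2.06 to 3.41. HSPA9 over HSPA8 went from a log2 ratio of -4.11 ± 0.13 to -2.80 ± 0.32 and -0.59 ± 0.17, so that the mitochondrial gene came close to the cytosolic one. HSPA4L over HSPA4 went from -0.57 ± 0.68 to 0.29 ± 0.27 and 1.66 ± 0.40. Its mean changed sign, although replicate 2 at 0h was already positive (0.27) and replicate 3 at 22h was negative (-0.07). DNAJA1 over DNAJA2 went from 5.44 ± 0.15 to 7.02 ± 0.40 and 8.40 ± 0.20. CCT8 over CCT4 was 4.26 ± 0.83, 4.15 ± 0.40 and 8.19 ± 0.19, with the 22h libraries inside the 0h range of 3.12 to 5.06 and all of 46h above both.

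**Figure D5:**
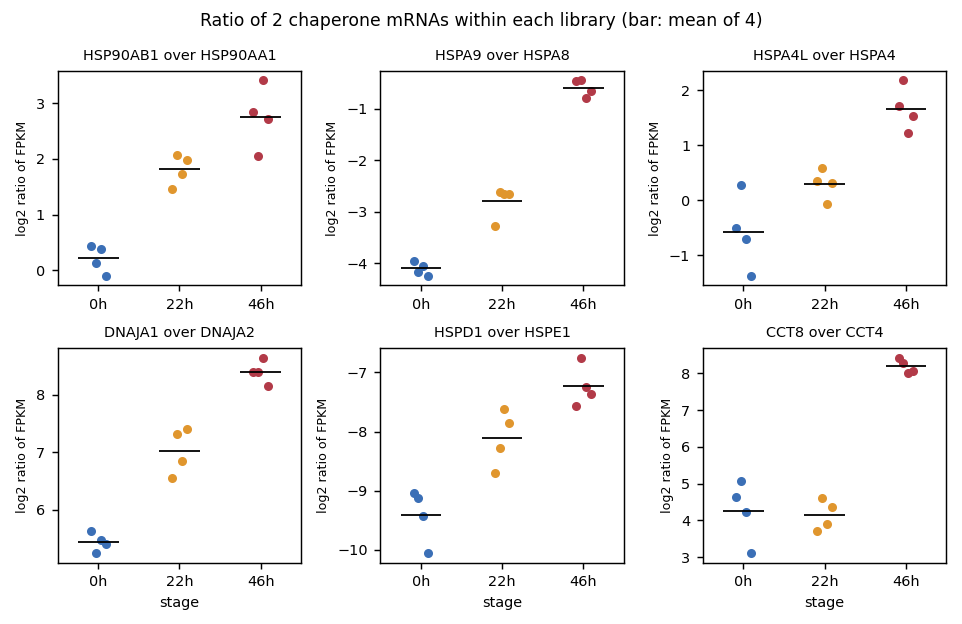
Each panel plots the log2 ratio of 2 chaperone mRNAs in every library by stage, with a bar at the mean of 4. In all 6 panels, whose pairs were chosen after the values were seen, every library at 46h is above every library at 0h. For CCT8 over CCT4 the 0h and 22h libraries overlap.

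Some libraries were often the extreme of their stage, a count made over the members and not over all genes. Replicate 1 at 22h was the lowest of its stage in 7 of the 8 members that rose from 0h to 46h and the highest in 19 of the 30 that fell, and replicate 4 at 0h was the lowest of its stage in 5 of the 8 and the highest in 16 of the 30. Replicate 2 at 0h was the highest of its stage in 5 of the 8 and the lowest in 17 of the 30, and replicate 2 at 22h was the lowest in 16 of the 30. Replicate 3 was the highest of the 8 rising members in 5 cases at 22h and in 5 at 46h. Such extremes were also seen in the 17 members that did not pass at 46h against 0h. Among these 17, replicate 4 at 0h was the highest of its stage in 11 and replicate 2 at 0h the lowest in 8. Replicate 1 at 22h was the lowest in 7 of them. The libraries also differed in scale over all genes. Median-of-ratios size factors of replicates 1 to 4 were 1.062, 1.003, 1.140 and 1.389 at 0h. At 22h they were 1.135, 1.052, 1.165 and 1.064. The part of this scale in the extremes was not tested. The member counts at 46h against 0h without replicate 4 at 0h were 9 higher and 31 lower, beside 1292 higher and 2669 lower of all 7013 genes.

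Of the 22 members under the filter, 4 were listed at 0 in every library (CCT8L2, HSPA1L, HSPB7 and HSPB9). The other 18 were DNAJB2, DNAJB5, DNAJB12, DNAJC4, DNAJC5, DNAJC5B, DNAJC16, DNAJC19, DNAJC25, DNAJC28, HSPA6, HSPA12B, HSPA13, HSPB3, HSPB6, HSPBP1, CDC37 and PTGES3. Of these, DNAJB12 and HSPB3 reached the exact p of 0.0286 at 46h against 0h as CDC37 did, all of them lower, and none did at 22h against 0h.

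A list of 62 genes that work with chaperones was described in the same way, with 56 matched and 42 tested. At 46h against 0h 2 were higher (4.76%, against 16.8% of all genes) and 17 lower (40.5%, against 39.1%), with a median of -0.48 against -0.25. At 22h against 0h 4 were higher (9.52%, against 7.84%) and 12 lower (28.6%, against 18.9%), and at 46h against 22h 3 were higher (7.14%, against 9.87%) and 14 lower (33.3%, against 32.6%). The shares that were lower at 46h were thus near those of all genes. PFDN1 and VBP1, subunits of prefoldin, which hands actin and tubulin to the chaperonin, had 95.1 ± 41.4, 12.2 ± 4.97 and 2.51 ± 0.903 FPKM and 73.2 ± 12, 51.2 ± 12.8 and 7.22 ± 2.04 FPKM at 0h, 22h and 46h, and both were lower at 46h than at 0h, whereas the prefoldin subunit PFDN4 had 316 ± 103, 343 ± 81.8 and 517 ± 38 FPKM and was higher. TOMM34, which binds HSP70 and HSP90 with preproteins bound for mitochondria, had 115 ± 9.25, 34.9 ± 18.3 and 4.14 ± 1.09 FPKM, and CALR, the ER lectin chaperone calreticulin, had 124 ± 31.8, 20 ± 7.15 and 4.9 ± 0.523 FPKM. HSCB, the mitochondrial J-protein of iron-sulfur assembly, which the name rule does not reach, had 44.6 ± 18.7, 82.3 ± 21.8 and 69.6 ± 7.4 FPKM and was higher at 46h than at 0h. HSF1, the heat shock factor, was under the filter, with 1.04 ± 1.09, 0.39 ± 0.317 and 0.08 ± 0.0294 FPKM and an SD above the mean at 0h.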

How the data were processed

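RNA of 12 oocyte samples (4 per stage) was sequenced, and the authors trimmed the reads, aligned them with STAR to Sscrofa11 and deposited one FPKM value per Ensembl gene and library, made with RSEM. Replicates were not pooled and depth is not given by FPKM. The members and lists were chosen with earlier results of these data known.

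Symbols came from a table of Ensembl identifiers. The 7013 genes averaging 1 FPKM or more were analysed on the log2(FPKM + 1) scale by limma 3.58.1 under R 4.3.3 (eBayes with trend), with stage as the only factor over 12 libraries, two-sided, with Benjamini-Hochberg adjustment over these genes. Genes under the filter had an exact permutation test (70 arrangements). The fit was tested on simulated data. Apart from full lists, members named were those with a mean of at least 20 FPKM and the 8 largest rises and falls of each comparison. The chaperonin, HSP90, HSP70, HSP110 and small HSP members, cochaperones, and ER and mitochondrial members were named too. Every library's value was given for the 3 largest rises and falls of each comparison and the ring. DNAJA2, DNAJA4, DNAJC6, DNAJC13, DNAJC22 and DNAJC27 were named outside this rule. HSPE1, HSPA8 and HSP90AA1 got each library's value, and CCT6B, DNAJC2 and DNAJB1 were named beside others, after values were seen. Of these, CCT6B and DNAJC2 also met the rule for naming. CDC37 and PTGES3 got each library's value as well, outside the rule for such values. HSPA8, HSPE1 and HSP90AA1 have near-identical copies in mammalian genomes, among which read assignment is uncertain.

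Alternatives were a pseudocount of 0.1, no filter, a filter at 5 FPKM, median-of-ratios, quantile and TPM scaling (with and without mitochondrially encoded genes), the groups compared alone, the replicate number as a block, eBayes without trend, and each library left out. RefSeq's Sscrofa11.1 was used for sequence windows, which is not stated to be the annotation behind the values, and protein sequences were not used here.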

Additional observations from a re-analysis of the deposited data

Results flagged for a closer look

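Among 165 groups of 4 libraries (55 members at 3 stages), 9 had a library whose gap to its nearest neighbour, as a share of the group's range, was beyond Dixon's critical value at 95%, where 8.25 would be reached by chance at 1 in 20. Replicate 4 at 0h was high for DNAJC1 (36.95 FPKM, others 22.27 to 22.54) and for DNAJC17 (15.29, others 9.57 to 10.45). Replicate 2 at 0h was low for DNAJC13 (9.09, others 12 to 12.23) and high for HSPA4L (43.47, others 30.26 to 32.45). Replicate 1 at 22h was high for CCT6B (14.15, others 11.82 to 12.17) and low for DNAJC24 (2.02, others 4.93 to 5.52). Replicate 3 at 22h was high for HSPBAP1 (4.37, others 2.18 to 2.55). At 46h replicate 4 was low for DNAJB6 (7.25, others 8.56 to 8.74) and replicate 1 was high for DNAJC10 (1.14, others 0.76 to 0.79).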

How the results depend on the processing

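The number of members higher at 22h against 0h, 3, became 1 with no filter on low values and 1 with only the groups compared, and 1 to 5 with each library left out (5 without replicate 4 at 0h, 1 without replicate 2 or 4 at 22h). The 17 lower members became 10 with a mean of at least 5 FPKM, where fewer genes are tested. The 8 higher at 46h against 22h became 5 at TPM, where those of all 7013 genes went from 692 to 525. The 8 higher at 46h against 0h became 14 under median-of-ratios scaling and 18 under quantile normalization (25.5% and 32.7%, against 29.2% and 40.3% of all genes), where the median of all genes was higher. No called gene turned its direction under any of the 22 alternatives in which it was tested. With the filter at 5 FPKM some called genes, such as CCT3, were not tested. Of 165 single results (55 members in 3 comparisons), quantile normalization gained 15 calls and lost 14, and median-of-ratios scaling gained 11 and lost 9. Calls that passed without each library numbered 1 of 3 higher and 13 of 17 lower at 22h against 0h, 5 of 8 and 24 of 26 at 46h against 22h, and 8 of 8 and 30 of 30 at 46h against 0h.

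With the replicate number as a block the counts were 2 higher and 17 lower, 8 and 26, and 8 and 30 for the 3 comparisons in that order (22h against 0h, 46h against 22h, 46h against 0h), HSPA14 at 22h being the only call lost. Same-numbered libraries correlated by -0.466 to 0.381 in their deviations from the stage means, with 9 of 12 values under 0.1, so the numbers were not taken to pair the samples.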
